A study of Mus musculus with 9 samples.

Results

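This section describes 30 genes of the integrated stress response in the cells that the labels name HL-1. They are the gene of the transcription factor ATF4, its targets, and genes that act before it or with it. The genes were chosen by name, with earlier results of these data known. A gene counted as measured when a transcript cluster (the probes grouped for 1 transcript) carried its symbol alone in the platform annotation. Of the 30 genes, 29 were measured, among 30050 genes in all, and Pycr1 was not analysed here. HL-1 is an immortalized line of mouse atrial cardiomyocytes. Phosphate-buffered saline was the control treatment (Con). The DOX group was given doxorubicin, a chemotherapy drug that damages DNA through topoisomerase II, at 0.3 µM, and the DOX_IFNg group the same dose together with interferon gamma at 20 ng/ml. Each group had 3 Affymetrix arrays, and all cells grew in DMEM with fetal bovine serum. Interferon gamma by itself was not analysed here, and how long treatment lasted is not given in the sources used here. Since no label states that replicates came from separate dishes, p-values cover only array-to-array spread, possibly technical.

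The integrated stress response begins with kinases that phosphorylate the translation factor eIF2, among them PERK (Eif2ak3), which senses unfolded protein in the endoplasmic reticulum, and GCN2 (Eif2ak4), which senses uncharged tRNA. General translation then slows while the ATF4 message is translated more, and ATF4 switches on genes for amino acid import, amino acid synthesis and the later factors CHOP (Ddit3) and TRIB3. Arrays read RNA only, so neither eIF2 phosphorylation nor ATF4 protein was measured here.

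Values are log2 RMA levels, in which a step of 1 is a doubling. A level is called dim below when it lay under the receptor limit of 4.71, the 95th percentile of 1523 olfactory and vomeronasal receptor genes. Averaged over all arrays, 27 of the 29 genes lay above that limit, and Slc7a3 and Ppp1r15a lay under it. The medians over all clusters ran from 4.08 to 4.17 on the 9 arrays. The label of the cells was only partly borne out: 3 of 14 cardiomyocyte markers lay above the limit in Con, with Tnnt2 at 7.94 ± 0.18 (SD, n = 3), while Myh6 (4.29 ± 0.04) and Nppa (3.97 ± 0.09) were dim. Of 7 skeletal myoblast markers 3 lay above it in Con (Myod1, Myog and Chrna1). So did 4 of 7 fibroblast markers (Col1a1, Col1a2, Col3a1 and Postn), 0 of 7 endothelial and 0 of 7 immune markers. Some of these markers moved with doxorubicin, in both directions. Over all genes 8.06% were called higher and 7.53% lower in DOX minus Con (limma adjusted p under 0.05). Of the 14 cardiomyocyte markers 1 fell, Tnnt2, by 1.24 (limma adjusted p = 5.32e-05), and 0 rose. That share of falls, 7.14%, was near the share over all genes. Of the 7 myoblast markers the myogenic factor Myog fell by 3.42 (limma adjusted p = 5.57e-06), while 3 rose (Myod1 by 0.76, Chrna1 by 0.42 and Des by 0.30). Of the 7 fibroblast markers 4 fell (Col1a1, Col1a2, Lum and Col3a1, the last by 1.87) and 1 rose (Thy1, by 0.21). None of the endothelial or immune markers was called. The mean level of the fibroblast markers ran from 8.65 to 8.86 over the Con arrays and from 8.20 to 8.22 over the DOX arrays, and that of the myoblast markers from 4.96 to 5.01 and from 4.58 to 4.73. That of the cardiomyocyte markers was lower than both, from 4.51 to 4.52 over the Con arrays and from 4.41 to 4.44 over the DOX arrays, under the receptor limit. The part of these markers in the differences described here was not tested. Exactly shared values also set 6 arrays (Con replicate 1, all DOX arrays and DOX_IFNg replicates 1 and 2) apart from the other 3, a grouping spread unevenly over the treatments. In RNA from whole cell populations, a change in the share of responding cells and a change in RNA per cell cannot be told apart.

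Most of the ATF4 genes carried more RNA in doxorubicin-treated cells than in control cells. Among the 29, a rise was called in 20 and a fall in 1, while 8 did not pass the test (limma, Benjamini-Hochberg adjusted p under 0.05 over all 30050 genes). The background was 8.06% of all genes called higher and 7.53% called lower, against 69.0% and 3.45% of these. Because the genes were chosen with earlier results of these data known, these shares are a description and not a test. Among the 12023 genes above the receptor limit, where all 20 that rose lay, 17.4% were called higher and 15.7% lower. That limit was set on the mean over all arrays. Trib3 (4.35 in Con) and Stc2 (4.65 in Con) lay above it only through the treated arrays. The median difference was 0.59 on the log2 scale, against -0.01 over all genes tested. Every DOX array lay above every Con array in 23 of the 29 genes, a pattern found in 15.7% of all genes, and below every Con array in 2, against 17.2% of all genes. Of the 20 that rose, 6 rose at least 2-fold (Ddit3, Chac1, Ddit4, Shmt2, Asns and Slc6a9), whereas 1.08% of all genes were called with such a rise. Genes that rose were found among the transcription factors, translational and growth control, amino acid synthesis, amino acid carriers and the 3 remaining genes.

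**Figure D1:**
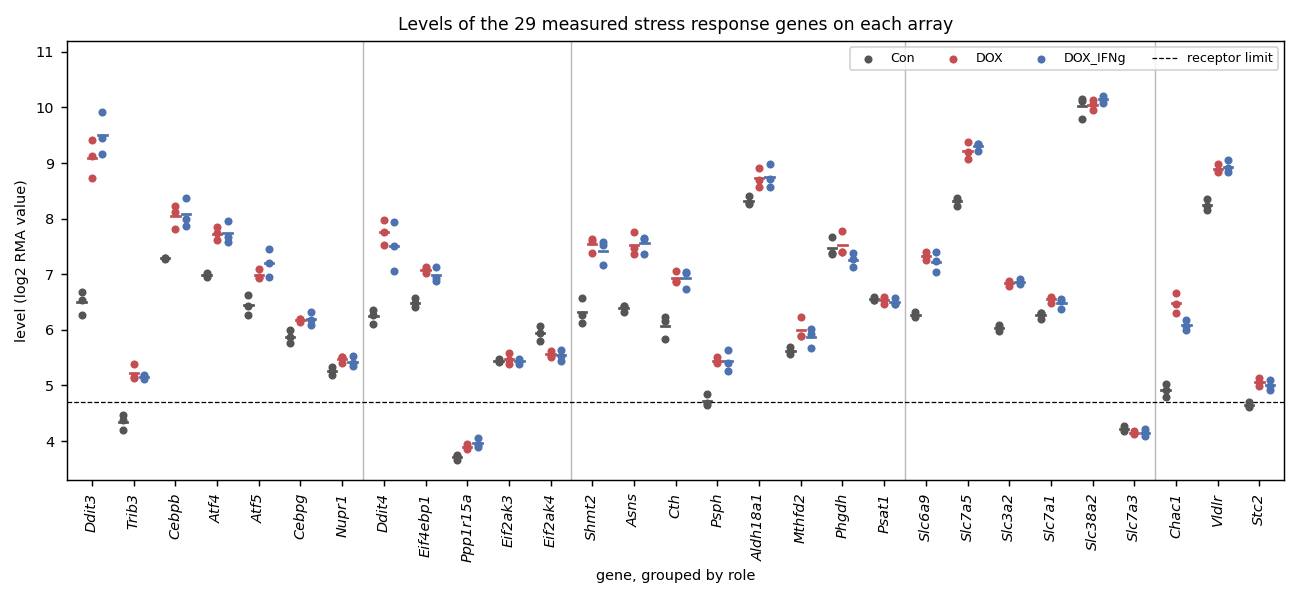
Levels (log2 RMA value) of the 29 measured genes on each of the 9 arrays, grouped by role. Points are arrays, short bars are the means of 3 arrays, and the dashed line is the receptor limit of 4.71. The Con points of Ddit3, Chac1, Ddit4, Asns and Slc6a9 lie clear of both treated groups, while those of Psat1, Eif2ak3 and Slc38a2 lie among them.

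Seen array by array, the shift was of similar size on each treated array. Relative to each gene's Con mean, the median over the 29 genes was 0.65, 0.60 and 0.53 on the 3 DOX arrays and 0.52, 0.66 and 0.65 on the 3 DOX_IFNg arrays. The same median over all genes stayed between -0.03 and 0.01 on all 9 arrays. Between 23 and 25 of the 29 genes lay above their highest Con value on each treated array. The matching count over all genes was not made, so this range has no background beside it.

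The ATF4 binding site, a composite of an ATF part and a C/EBP part, was looked for because it is the sequence through which this factor is known to act on several of these genes. RefSeq promoter windows (mouse GRCm38.p6, 250 bases before to 50 after a start site) matched 26 of the 30 genes by symbol, with 33 windows. The motif TGATGNAAN, read on both strands, occurred in 6 of these 33 windows, each of a different gene, and in 3.95% of all 32851 windows. The 6 sites are shown with 10 bases on either side, 5′ to 3′ on the strand that reads TGATG, with the motif in capitals.
Chac1: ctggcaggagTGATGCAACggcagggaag
Asns: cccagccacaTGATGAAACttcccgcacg
Trib3: cccgcccggcTGATGTAAAcctgagctaa
Vldlr: ctaggagcgcTGATGCAACtattgctgct
Nupr1: aagccctgtcTGATGCAATctggcccttt
Pycr1: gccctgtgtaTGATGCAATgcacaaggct
These stretches lie at chr2:119351038-119351066 (Chac1), chr6:7693214-7693242 (Asns), chr2:152344029-152344057 (Trib3), chr19:27216809-27216837 (Vldlr), chr7:126625563-126625591 (Nupr1) and chr11:120643833-120643861 (Pycr1). The motif begins 194 bases before the start site in Chac1, 23 before it in Asns, 111 in Nupr1, 103 in Pycr1 and 201 before 1 of the Vldlr starts, and at base 14 after the start in Trib3. Chac1, Asns, Trib3 and Vldlr rose, Nupr1 did not pass the test, and Pycr1 was not measured. The narrower form TGATGCAAT, contained in the motif above, was found only in Nupr1 and Pycr1 among these genes and in 0.192% of all windows. The endoplasmic reticulum stress element, CCAAT and CCACG with 9 bases of any kind between them, was in 0 of the 33 windows and in 0.119% of all windows. The cyclic AMP response element TGACGTCA was in 1 window, that of Ppp1r15a, and in 1.79% of all windows. A match is a description of letters, not a binding site, and windows of this length leave out more distant sites.

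The 250 bases before the start are shown for the pair of genes that had the site there and rose most, with the motif in capitals and the gene's own strand read 5′ to 3′. In Chac1, on the plus strand at chr2:119350992-119351241, the site is on the opposite strand and therefore reads GTTGCATCA. In Asns, on the minus strand at chr6:7693210-7693459, it reads in the direction of the gene.
Chac1: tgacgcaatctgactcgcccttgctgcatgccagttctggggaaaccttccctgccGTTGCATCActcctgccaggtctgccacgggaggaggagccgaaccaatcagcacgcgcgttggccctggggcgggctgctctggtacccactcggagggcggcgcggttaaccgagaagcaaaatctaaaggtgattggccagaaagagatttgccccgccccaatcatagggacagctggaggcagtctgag
Asns: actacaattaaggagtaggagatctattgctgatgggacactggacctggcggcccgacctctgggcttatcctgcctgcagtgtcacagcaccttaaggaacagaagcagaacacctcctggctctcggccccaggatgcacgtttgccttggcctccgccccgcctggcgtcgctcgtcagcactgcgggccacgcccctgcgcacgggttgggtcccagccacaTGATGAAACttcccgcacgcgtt

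Among the transcription factors and their regulators, 6 of 7 rose with doxorubicin and 1 did not pass. Ddit3, which encodes CHOP, the factor that turns a prolonged stress response towards cell death, had the largest difference of all 29 genes. It read 6.69, 6.53 and 6.26 on the Con arrays, 9.12, 9.41 and 8.73 on the DOX arrays, and 9.16, 9.45 and 9.92 on the DOX_IFNg arrays. Every treated array lay far above every Con array. The difference was 2.59 (SE 0.23, 6.02-fold, limma adjusted p = 0.000133).

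Atf4 RNA itself rose less than that of several of its targets. Its levels were 6.99, 7.02 and 6.96 in Con, 7.74, 7.85 and 7.61 in DOX, and 7.58, 7.67 and 7.95 in DOX_IFNg, with no overlap between Con and either treated group. The rise was 0.75 (SE 0.10, 1.68-fold, limma adjusted p = 0.00122). Trib3, a pseudokinase that binds ATF4 and CHOP and restrains them, went from 4.47, 4.37 and 4.20 in Con, which is dim, to 5.13, 5.15 and 5.38 in DOX. The rise was 0.87 (SE 0.09, limma adjusted p = 0.000288), with no overlap.

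Both C/EBP family members, which form heterodimers with ATF4, were called higher. Cebpb was nearly constant in Con at 7.28, 7.30 and 7.29 and read 8.11, 8.23 and 7.82 in DOX, a rise of 0.77 (SE 0.14, limma adjusted p = 0.00604). Cebpg differed by 0.30 (SE 0.08, limma adjusted p = 0.0307), but leaving out Con replicate 1 or 2, or any of the DOX arrays, ended the call (adjusted p from 0.0625 to 0.1). Atf5, a factor under translational control like ATF4, was 0.55 higher (SE 0.13, limma adjusted p = 0.0246), and the same 5 omissions each took its adjusted p past 0.05 (0.0551 to 0.0928). Nupr1, a small stress-induced chromatin protein, lay at 5.26 ± 0.07 in Con and 5.47 ± 0.07 in DOX (SD, n = 3), and this did not pass (0.21, SE 0.07, limma adjusted p = 0.0676). It passed among genes above the receptor limit (0.0419) and among protein-coding genes (0.0384).

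Among the eIF2 kinase and phosphatase genes of the set, none was called higher in DOX minus Con. Eif2ak3 overlapped between the groups, at 5.47, 5.42 and 5.44 in Con and 5.45, 5.58 and 5.39 in DOX, and its difference of 0.03 had a 95% interval from -0.11 to 0.17. Eif2ak4 was the only one of the 29 genes to fall, by 0.38 on the log2 scale (SE 0.08, limma adjusted p = 0.0124), from 6.07, 5.94 and 5.81 in Con to 5.63, 5.54 and 5.52 in DOX. Ppp1r15a (GADD34), the subunit that directs a phosphatase to eIF2 and so ends the response, was dim at 3.72 ± 0.05 in Con and 3.89 ± 0.04 in DOX (SD, n = 3). Its arrays did not overlap, but its difference of 0.18 (SE 0.06) did not pass (limma adjusted p = 0.0792), though it did among protein-coding genes (0.0449). Outside the set, the phosphatase subunit gene Ppp1r15b rose by 0.23 (SE 0.06, limma adjusted p = 0.0274). The kinase gene Eif2ak2, dim in every group, rose by 0.21 (SE 0.06, limma adjusted p = 0.04971). A further kinase gene, Eif2ak1, was 0.34 higher (SE 0.10) without overlap and did not pass (limma adjusted p = 0.0621).

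Ddit4 and Eif4ebp1, which act on either side of the growth kinase mTORC1, rose. Ddit4 (REDD1), which inhibits mTORC1 through the TSC complex, read 6.35, 6.11 and 6.26 in Con and 7.76, 7.98 and 7.52 in DOX. The rise was 1.51 (SE 0.21, 2.85-fold, limma adjusted p = 0.00138). On the DOX_IFNg arrays it was the most variable of the 29 genes, at 7.07, 7.50 and 7.93. Eif4ebp1, the repressor of cap-dependent translation that mTORC1 inactivates, rose by 0.59 (SE 0.08, limma adjusted p = 0.00116), from 6.49 ± 0.08 to 7.08 ± 0.05 (SD, n = 3).

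Of the 8 measured genes of amino acid synthesis, 5 rose and 3 did not pass. Asns, which makes asparagine from aspartate, read 6.33, 6.43 and 6.42 in Con and 7.48, 7.75 and 7.37 in DOX, a rise of 1.14 (SE 0.11, 2.20-fold, limma adjusted p = 0.000226). Cth, which makes cysteine from cystathionine, rose by 0.85 (SE 0.12, limma adjusted p = 0.00183). Aldh18a1, which starts proline synthesis from glutamate, was 0.41 higher (SE 0.12) at an adjusted p of 0.04996 by limma. That call was lost with the replicate number as a block (adjusted p = 0.0767) and with the trend and robust variance model of limma (adjusted p = 0.067). It was also lost without Con replicate 1, 2 or 3, DOX replicate 1 or 2, or DOX_IFNg replicate 2 (adjusted p from 0.0656 to 0.151).

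Along the route from glycolysis to serine and one-carbon units, the first steps and the later steps gave different readings. Phgdh, the first enzyme, read 7.36, 7.38 and 7.68 in Con and 7.41, 7.77 and 7.40 in DOX, and the groups overlapped. Its difference was 0.05 with a 95% interval from -0.24 to 0.35. For Psat1, the second enzyme, the difference was -0.02 with an interval from -0.14 to 0.10, so a change of the size seen in Asns lay outside both intervals. Psph, the last enzyme of serine synthesis, read 4.84, 4.64 and 4.68 in Con and 5.43, 5.50 and 5.41 in DOX, and rose by 0.73 (SE 0.10, limma adjusted p = 0.00127). Shmt2, the mitochondrial enzyme that splits serine into glycine and a one-carbon unit, rose by 1.21 (SE 0.15, 2.32-fold, limma adjusted p = 0.000709), from 6.27, 6.12 and 6.58 to 7.64, 7.59 and 7.38. Mthfd2, which oxidizes that one-carbon unit, lay above Con on every DOX array (5.69, 5.57 and 5.63 against 5.89, 6.23 and 5.89), and its difference of 0.37 (SE 0.11) did not pass (limma adjusted p = 0.0616). It passed among genes above the receptor limit (adjusted p = 0.0336) and among protein-coding genes (adjusted p = 0.0369). Whether the enzymes of this route differ from each other in their change was not tested.

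**Figure D2:**
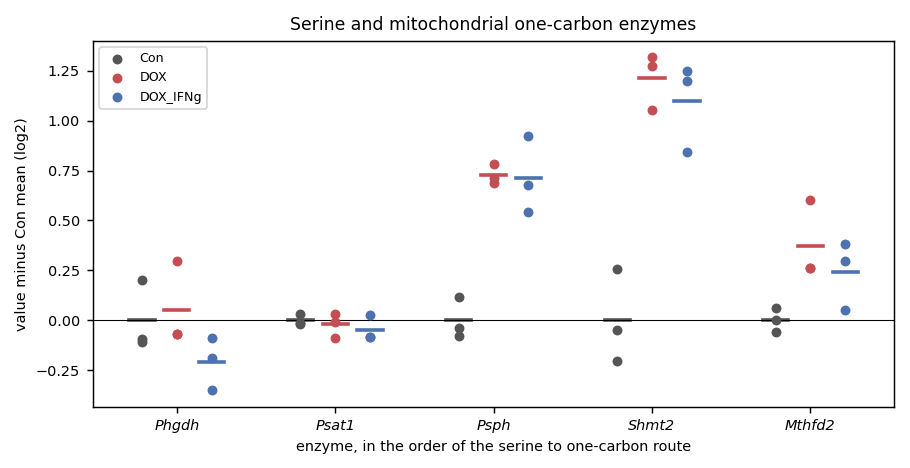
Value of each array minus the gene's Con mean (log2) for the enzymes from serine synthesis to the mitochondrial one-carbon pathway. Points are arrays and bars are means of 3. Phgdh and Psat1 scatter around 0 in DOX (0.05 and -0.02 on average), while all DOX points of Psph and Shmt2 lie above all Con points.

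Of the 6 amino acid carriers, 4 rose and 2 did not pass. Slc7a5 (LAT1), which exchanges glutamine for large neutral amino acids, read 8.22, 8.34 and 8.37 in Con and 9.19, 9.38 and 9.07 in DOX, a rise of 0.90 (SE 0.08, limma adjusted p = 0.000194). Slc3a2, the partner chain that carries LAT1 to the membrane, had one of the tightest spreads, at 6.04, 5.99 and 6.09 in Con and 6.88, 6.84 and 6.79 in DOX, and rose by 0.80 (SE 0.05, limma adjusted p = 3.30e-05). Both chains of this transporter thus rose by similar amounts, and whether they differ was not tested.

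The glycine carrier Slc6a9 (GlyT1) rose by 1.06 (SE 0.09, 2.08-fold, limma adjusted p = 9.67e-05), from 6.32, 6.22 and 6.26 to 7.25, 7.40 and 7.32. It was the only one of the 29 genes with a second single-symbol cluster. That cluster was dim in every group (4.64 in Con, 4.58 in DOX and 4.50 in DOX_IFNg) and differed by -0.06 in DOX minus Con. The rise of Slc6a9 therefore rests on the brighter cluster alone. The cationic amino acid carrier Slc7a1 was 0.28 higher (SE 0.07, limma adjusted p = 0.0207), which did not hold when Con replicate 1 (0.0653), DOX replicate 1 (0.0747) or DOX replicate 2 (0.0771) was omitted. Its relative Slc7a3 was dim in every group (4.22 ± 0.05 in Con, SD, n = 3) and gave no call. Slc38a2 (SNAT2), a sodium-coupled carrier of small neutral amino acids known as an ATF4 target, overlapped between the groups at 10.02 ± 0.20 in Con and 10.04 ± 0.09 in DOX (SD, n = 3). The 95% interval of its difference ran from -0.20 to 0.24.

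The 3 remaining genes all rose. Chac1, an enzyme that breaks down glutathione, read 4.80, 5.03 and 4.92 in Con and 6.66, 6.47 and 6.31 in DOX, a rise of 1.57 (SE 0.10, 2.96-fold, limma adjusted p = 2.77e-05), the second largest of the set. Vldlr, a lipoprotein receptor, rose by 0.65 (SE 0.08, limma adjusted p = 0.000669) from 8.35, 8.22 and 8.15 to 8.98, 8.87 and 8.83. Stc2, a secreted glycoprotein, rose by 0.41 (SE 0.07, limma adjusted p = 0.00336), from 4.65 ± 0.05, which is dim, to 5.06 ± 0.08 (SD, n = 3). In order of size, Ddit3 stood clear of every other gene, its interval from 2.08 to 3.11 starting above the end of the next (1.79 for Chac1, 1.98 for Ddit4). From Chac1 down to Slc7a3 each gene's interval overlapped that of its neighbour, so those ranks are not settled, and the interval of Eif2ak4 lay below that of Slc7a3.

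With the array set given by shared values as a covariate, 20 of the 29 genes rose and 1 fell in DOX minus Con, the counts found without it, while calls over all genes went from 2423 to 1906 higher and from 2264 to 1769 lower. Among the 6 arrays of the larger set alone, with Con replicate 1 as the lone control, assumed to vary like the other groups, 13 rose and 1 fell. The 7 that lost their call there were Atf5, Psph, Aldh18a1, Slc7a1, Cebpb, Stc2 and Cth, with differences between 0.35 and 0.78.

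Interferon gamma added to doxorubicin gave no call in these genes. By limma 0 of the 29 passed in DOX_IFNg minus DOX, where 0% of all genes were called, as with the trend and robust variance model. At an unadjusted p under 0.05 the count was 1 of 29, and 1503 over all 30050 genes. Differences ran from -0.40 to 0.43, with a median of -0.01 against -0.01 over all genes. Half-widths of the 95% intervals ran from 0.12 to 0.52, with a median of 0.20. For Atf4 the difference was 0.00 with an interval from -0.22 to 0.23, and for Asns 0.02 with an interval from -0.23 to 0.27, so a further doubling or halving lay outside both. For Ddit3 it was 0.43, and the interval from -0.09 to 0.94 leaves room for a rise of almost 2-fold.

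Chac1 had the smallest p of the set in this comparison. Its DOX_IFNg arrays, at 6.06, 6.01 and 6.18, all lay under its DOX arrays, with a difference of -0.40 (SE 0.10) at an adjusted p = 0.934 by limma, which did not pass. Phgdh was the other gene whose arrays did not overlap, at 7.12, 7.28 and 7.39 in DOX_IFNg against 7.41, 7.77 and 7.40 in DOX, and it did not pass either (limma adjusted p = 0.976). These 2 of 29 genes compare with 6.69% of all genes lying lower without overlap, so the share was near the background, and 0 of 29 lay higher without overlap, against 4.56% of all genes.

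**Figure D3:**
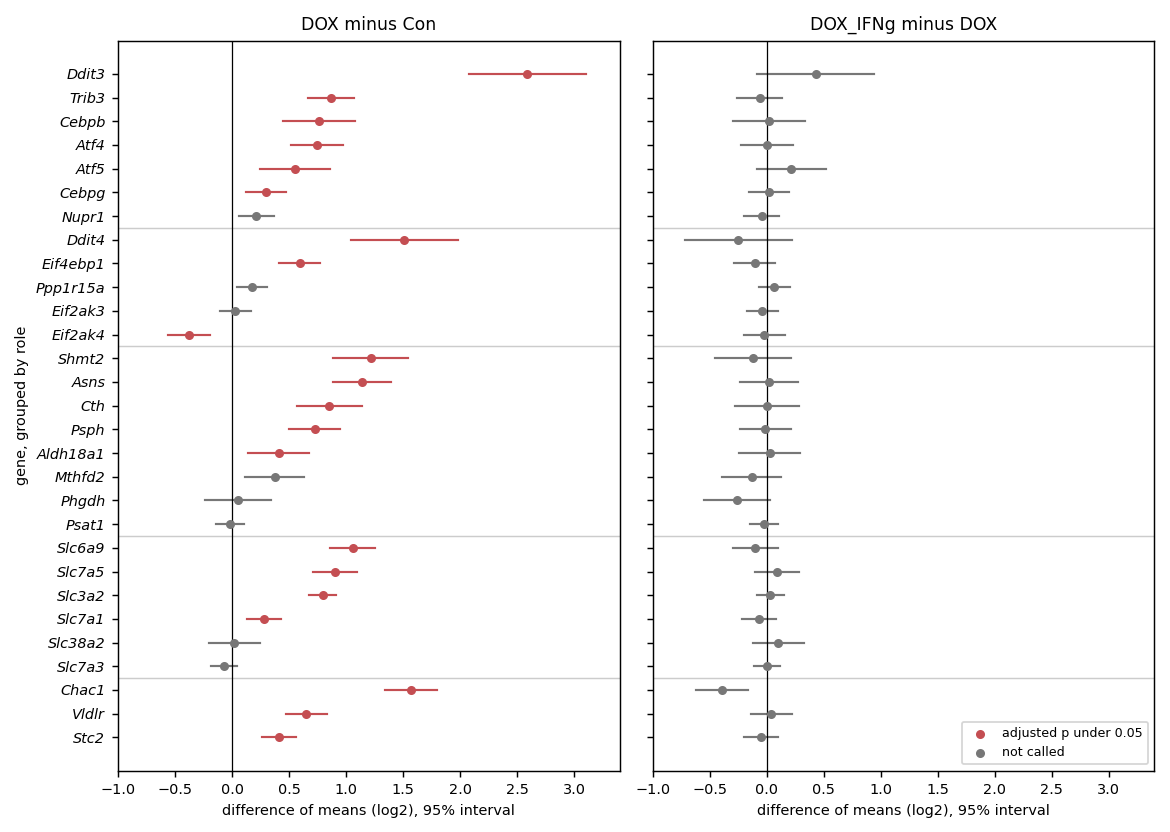
Difference of means (points) and its 95% interval (bars) on the log2 scale for the 29 genes, for DOX minus Con on the left and DOX_IFNg minus DOX on the right. Red marks genes with an adjusted p under 0.05. On the left 20 genes lie above 0 in red and Eif2ak4 below it; on the right no gene is red, and the Chac1 interval lies below 0 although its adjusted p is 0.934.

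Against Con, the cells given both agents had 20 genes higher, 1 lower and 8 not passing, where 8.01% of all genes were called higher and 9.41% lower (17.4% in either direction). Among genes above the receptor limit these shares were 17.2%, 19.7% and 36.8%. This comparison uses the same Con arrays as DOX minus Con, so the values are given side by side and not as a second test. Ddit3 differed by 3.02 (SE 0.23), beside 2.59 without interferon gamma, Asns by 1.16 beside 1.14, Ddit4 by 1.26 beside 1.51, Chac1 by 1.17 beside 1.57 and Atf4 by 0.75 beside 0.75. Calls differed in 2 genes. Slc7a1 was called in DOX minus Con and missed the threshold in DOX_IFNg minus Con (0.21, adjusted p = 0.0575 by limma). It passed there under quantile normalization (0.0282), among genes above the receptor limit (0.0357), among protein-coding genes (0.0337), with the array set as a covariate (0.0445) and without DOX_IFNg replicate 1 (0.0277). Ppp1r15a was called in DOX_IFNg minus Con and not in DOX minus Con (0.24 in the former, adjusted p = 0.0204 by limma). The call of Ppp1r15a ended when Con replicate 2 (0.0739) or DOX_IFNg replicate 3 (0.0592) was left out. That of Aldh18a1 (adjusted p = 0.0367) was lost without any single array other than DOX replicate 2, DOX replicate 3 or DOX_IFNg replicate 1 and with the replicate block (0.0593), and that of Cebpg (adjusted p = 0.0212) when any of Con replicates 1 and 2 and DOX_IFNg replicates 1 and 3 was left out (0.052 to 0.063).

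Other genes of the pathway were taken from fixed lists, likewise chosen with earlier results of these data known. Their counts in DOX minus Con stand against 8.06% of all genes called higher and 7.53% lower, or 17.4% and 15.7% among genes above the receptor limit. Rises outnumbered falls among further reported ATF4 targets. Of 25 such genes measured, 16 rose with doxorubicin, 1 fell and 8 did not pass, with a median of 0.32. The largest rises were those of Sqstm1, an autophagy receptor (2.57, SE 0.13), Vegfa, a growth factor for vessels (2.55, SE 0.10), and Cars, the cysteinyl-tRNA synthetase (1.69, SE 0.15), with limma adjusted p of 1.35e-05, 5.57e-06 and 0.00013. Of 11 measured basic leucine zipper factors, listed as possible partners or rivals of ATF4, 6 rose and 5 did not pass (median 0.46). The largest rises were those of Nfe2l2 (NRF2, 1.56, SE 0.14), Atf6 (1.32, SE 0.09), which is also in the list of the ATF6 arm, and Jun (0.95, SE 0.16).

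Of 14 measured genes for eIF2, its further kinases, its exchange factor and regulators, with the separate initiation factors Eif2a and Eif2d, 6 rose and 8 did not pass. The median was 0.15. Eif2b3, a subunit of the exchange factor eIF2B, stood out at 1.07 (SE 0.08, limma adjusted p = 5.32e-05), followed by Eif2d, an initiation factor (0.50, SE 0.05), and Eif2s2, a subunit of eIF2 (0.26, SE 0.06). The call of Eif2s2 (limma adjusted p = 0.0185) ended on omitting Con replicate 1 (0.057), Con replicate 3 (0.0531) or DOX replicate 3 (0.0633). In the ATF6 and IRE1-XBP1 arms, the branches of the unfolded protein response that run beside PERK, 4 of 15 genes were called higher and 4 lower, with 7 not passing. All 15 lay above the receptor limit, so these shares of 26.7% in each direction were not far from the background there. Atf6 and Sel1l, a component of endoplasmic reticulum degradation (1.21, SE 0.07), rose, while the chaperone Hsp90b1 fell by 0.99 (SE 0.14, limma adjusted p = 0.00161).

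Among 18 other amino acid carriers 6 rose, 3 fell and 9 did not pass (33.3% higher and 16.7% lower). The neutral carrier Slc1a4 (1.61, SE 0.10), the cystine carrier Slc7a11 (1.36, SE 0.11), which also pairs with Slc3a2, and Slc38a7 (1.14, SE 0.10) rose most. Neighbouring enzymes of serine, glycine, one-carbon, proline and transsulfuration metabolism were split, with 5 of 16 higher (31.2%), 4 lower (25.0%) and 7 not passing and a median of -0.01. Here Oat, which links ornithine to proline synthesis, fell by 0.74 (SE 0.08), the cytosolic one-carbon enzyme Mthfd1 fell by 0.60 (SE 0.09), and the thymidylate synthase gene Tyms rose by 0.61 (SE 0.12, limma adjusted p = 0.0106, and 0.0518 with the array set as a covariate). Of 22 genes of mTORC1 and amino acid sensing 8 rose, 3 fell and 11 did not pass (median -0.01). They were led by Fnip1 (1.41, SE 0.32), a partner of folliculin, Rragc, a Rag GTPase that recruits mTORC1 to lysosomes (1.27, SE 0.09), and Sesn2, a leucine sensor that restrains mTORC1 (1.07, SE 0.11). The call of Fnip1 (limma adjusted p = 0.0188) ended on omitting Con replicate 3 (0.0545), DOX replicate 1 (0.0637) or DOX replicate 3 (0.0655), and with the array set as a covariate its difference was 0.86 (adjusted p = 0.0559). The lists share a few genes, Atf6, Slc7a11 and Sesn2 among them, and differences between lists were not tested.

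**Figure D4:**
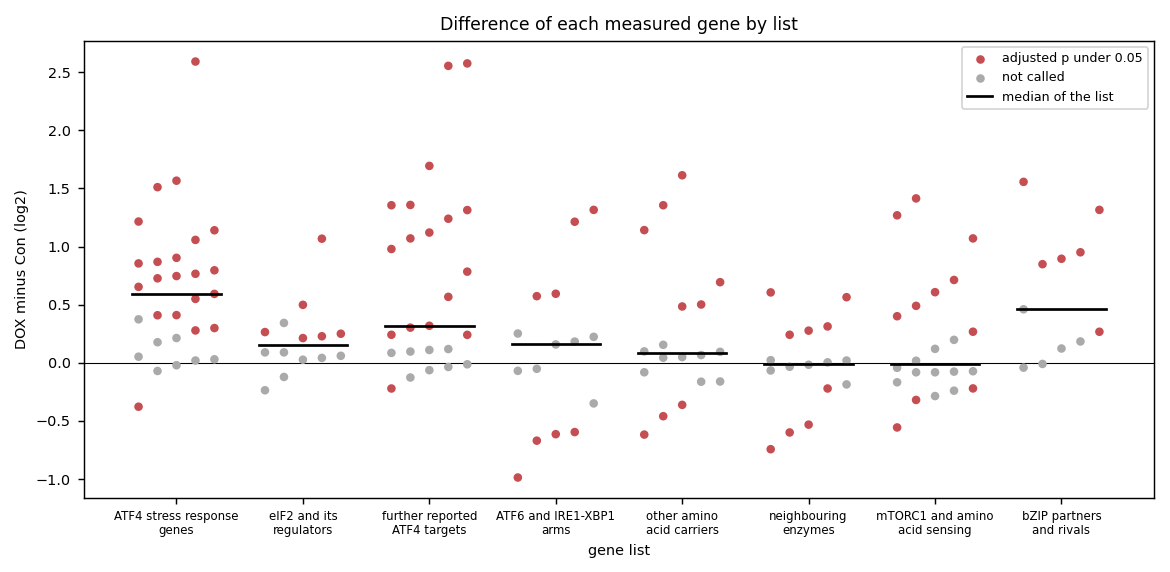
Difference of each measured gene in DOX minus Con (log2) for the ATF4 stress response genes and for each fixed list of related genes. Points are genes, red with an adjusted p under 0.05, and bars are list medians, which lie at 0.59 for the ATF4 stress response genes, 0.32 for further reported ATF4 targets and -0.01 for mTORC1 and amino acid sensing.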

How the data were processed

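RNA was read on 9 arrays, 3 per group, and groups and replicate numbers came from the labels. The authors deposited 1 table of log2 values for 65527 transcript clusters, made with RMA (background correction, normalization and probe summary) per the submitters' processing notes. For the RMA version, its settings and the genome build, the sources used here state nothing. That values are log2 follows from their range. Annotation gave 30376 clusters a single symbol (repeats of 1 symbol counted once), hence 30050 genes; 245 genes had several clusters, and the one with the highest mean was used. Group means were fitted to all 9 arrays with limma 3.58.1 in R 4.3.3 (lmFit, eBayes), with no filter on dim genes, two-sided, and Benjamini-Hochberg adjustment over 30050 genes. The procedure was tested on simulated data with independent noise and no effect of the array set, so that test does not cover the array sets seen here. Precision is limited by how few arrays there are, with a median 95% half-interval of 0.19 over genes. The 30 genes and all lists were chosen with earlier results of these data known. All 29 measured genes are named, with up to 3 called genes per further list by size of change. Also named are the eIF2 regulators Eif2ak1, Eif2ak2 and Ppp1r15b. Genes sharing probes with near-identical copies were not separated. Replicate numbers were not used as pairs. Promoter sequences are RefSeq's (GRCm38.p6).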

Additional observations from a re-analysis of the deposited data

How the results depend on the processing

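In DOX minus Con, 19 to 23 of the 29 genes rose under quantile normalization, the filter on dim genes, the fit of only the groups compared, averaged clusters, the trend and robust variance model, protein-coding genes only, the replicate block and the array-set covariate, and 1 fell in each. Leaving out 1 array gave 16 to 21 higher and 1 lower in DOX minus Con and 17 to 20 higher and 1 lower in DOX_IFNg minus Con.
With only the larger array set (1 Con array), 13 genes rose in DOX minus Con and 11 in DOX_IFNg minus Con, and calls over all genes were 1083 higher and 1374 lower, and 858 higher and 1376 lower. Deviations of same-numbered arrays from their group means correlated from -0.16 (replicate 3 of DOX and DOX_IFNg) to 0.36 (replicate 1 of Con and DOX_IFNg). Replicate 3 of Con and DOX_IFNg gave 0.33 and replicate 2 of DOX and DOX_IFNg gave 0.11, while all remaining same-numbered pairs were negative. Such deviations sum to 0 within each group of 3 arrays, so these correlations cannot settle whether same-numbered arrays were paired. With the replicate block, 19 genes rose in both comparisons, and calls over all genes were 2270 higher and 2202 lower in DOX minus Con and 2293 higher and 2695 lower in DOX_IFNg minus Con. The block ended the call of Aldh18a1 in both. Fitting only the arrays of the groups compared left 17 genes higher in DOX_IFNg minus Con, without Aldh18a1 (limma adjusted p = 0.0513), Cebpg (0.0626) and Ppp1r15a (0.054). In DOX_IFNg minus DOX 0 of the 29 genes passed under any of these settings, and over all genes 0 to 1 were called lower when 1 array was left out, the 1 without Con replicate 3. No named gene reversed direction with a call. The 3 arrays per group and dim levels (Slc7a3, Ppp1r15a) limit what could be detected.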
